A study of Bos taurus with 6 samples.

Results

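The 9 genes ALDH1A1, ALDH1A2, ALDH1A3, RBP4, STRA6, CRABP1, CRABP2, CYP26B1 and RDH10 carry, make, bind or break down retinoids, the active forms of vitamin A. They were found by exact symbol among the 34733 named genes of each file, and all 9 had 1 row. They were followed in cells sorted from the lining of the uterus (endometrium) of slaughtered cows (Bos taurus) in the luteal phase of the cycle. Per the labels, the tissue was freed of luminal epithelium and dissociated by collagenase, and the resulting stromal cells received the DNA dye Hoechst and propidium iodide, which marks dead cells. Side population (SP) cells pump the dye out and main population (MP) cells keep it. Verapamil, an inhibitor of dye export, was added to part of the stained cells. There were 3 SP and 3 MP libraries, with no genetic change or other treatment named for either, and both groups hold whatever cell types fell in the sorting gate. Nothing in the labels ties replicates to different animals; p-values therefore cover the spread among these samples alone, which may be technical.

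Retinol travels in blood on retinol-binding protein, the product of RBP4, in a complex with transthyretin (TTR), and STRA6 is a membrane receptor that takes retinol from it. Inside the cell RDH10 oxidises retinol to retinaldehyde, DHRS3 turns retinaldehyde back to retinol, and the ALDH1A enzymes oxidise retinaldehyde irreversibly to retinoic acid. Retinoic acid is bound by CRABP1 and CRABP2, acts on the nuclear receptors RAR and RXR, and is broken down by the CYP26 enzymes. The endometrium of ruminants is known to make and secrete retinol-binding protein.

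All levels are in FPKM, fragments per transcript length and per library total, so different genes may be compared per length; 3 values in a row are replicates 1 to 3. Counts were not in the files. The steps between the lowest values put the depth of SP replicates 2 and 3 at 1.6 and 1.82 times that of SP replicate 1, and MP replicates 1 to 3 at 2.32, 3.18 and 1.99 times, so all SP libraries were the shallower ones. Sums of FPKM ran from 647501 to 963629. The MP files are marked micro and the SP files are not, with no explanation; any difference in handling behind that mark cannot be told apart from the population. MP replicate 3 stood nearest to SP in its endothelial markers, given below, and counts are also given without it. That choice was made from these data, and leaving out the library most like the other group can widen differences. Over all genes 5092 were called without it, against 4759 with all libraries. In such bulk libraries, fewer cells of a type and less RNA per cell cannot be told apart.

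The carrier RBP4, its receptor STRA6, the synthesis enzymes ALDH1A1 and ALDH1A3 and the binding proteins CRABP1 and CRABP2 were at lower levels in SP than in MP. RDH10 and the low ALDH1A2 and CYP26B1 overlapped between the groups. Of the 9 genes, 7 reached 1 FPKM in at least 3 libraries and were tested on log2(FPKM + 1) with limma over all 12127 such genes, with p adjusted after Benjamini-Hochberg and called under 0.05. RBP4, STRA6, ALDH1A1, ALDH1A3, CRABP1 and CRABP2 fell in SP, none rose, and RDH10 did not pass; 6 were also called without MP replicate 3. Over all tested genes 39.2% were called, 18.7% lower and 20.5% higher in SP. Of the calls over all genes 52.3% were higher in SP, against 68.1% after each library was rescaled to a sum of 1e6, which moved the median of all genes to 0.20. The median log2 difference of the 7, SP minus MP, was −3.06, against 0.01 over all tested genes. In 6 of the 7 every SP value lay below every MP value, which held for 26.5% of all tested genes. With 3 libraries a group, an exact permutation test (two-sided) of one gene has a smallest possible p of 0.1, and each of the 6 reached that value. ALDH1A3 was under 1 FPKM in every SP library and could be tested only because its MP values were all higher, so the filter fixed its direction.

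**Figure D1:**
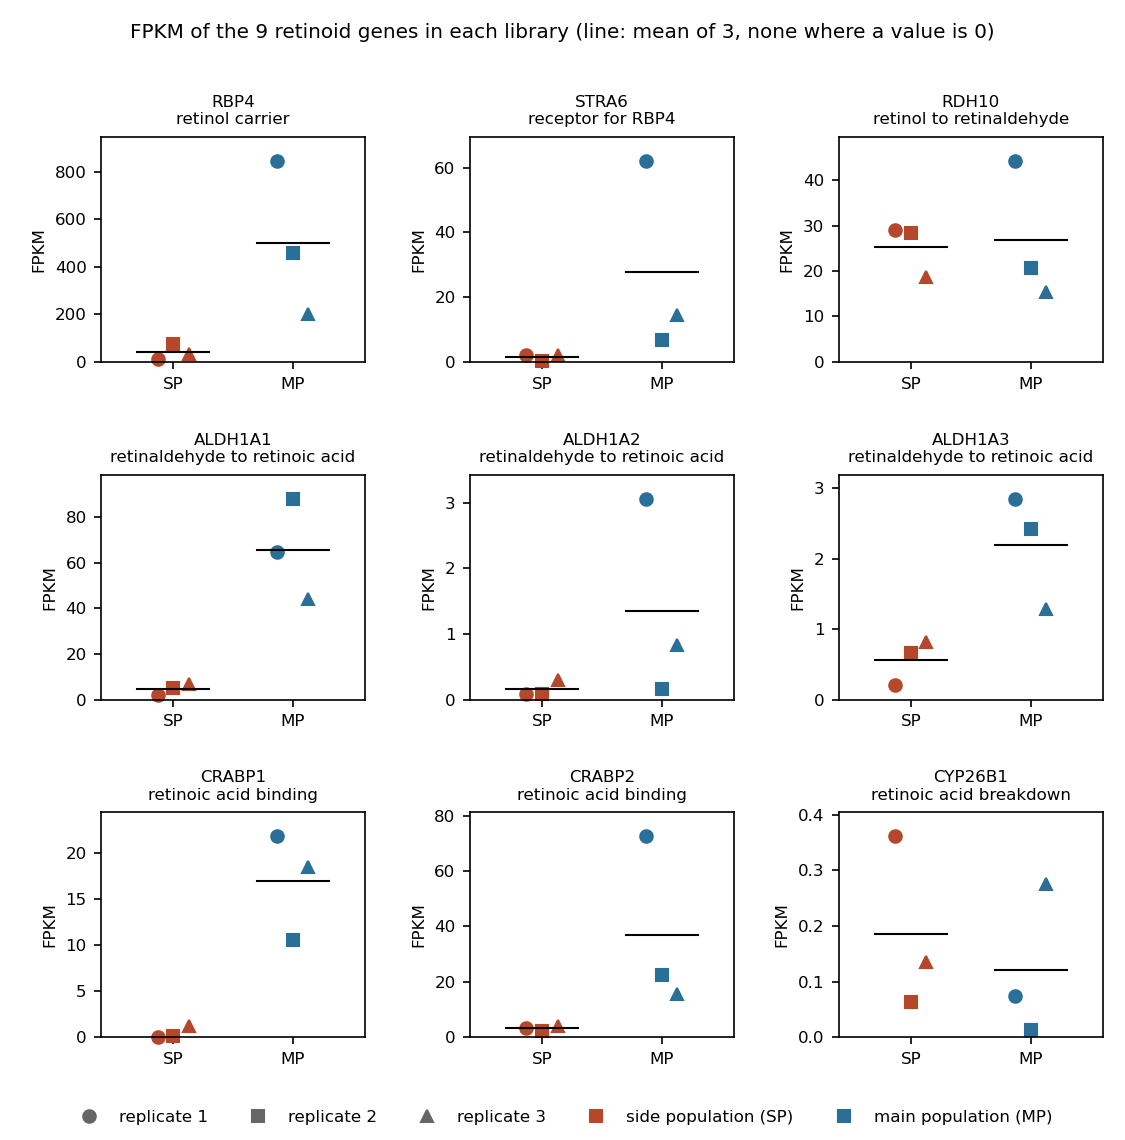
FPKM of each of the 9 genes in the 3 SP and 3 MP libraries, on a linear axis from 0 for each gene, with 1 symbol per replicate number and a line at the group mean (left out where a value is 0). In RBP4, STRA6, ALDH1A1, ALDH1A3, CRABP1 and CRABP2 all SP points lie below all MP points; in RDH10, ALDH1A2 and CYP26B1 they overlap.

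RBP4 (chromosome 26, 14896202 to 14902792, build ARS-UCD1.2), the retinol carrier, was at 14.4, 77.6 and 33.8 FPKM across SP, against 845, 458 and 203 FPKM across MP. The groups did not overlap, though both spread widely, and the lowest MP value was in MP replicate 3. The means were 41.9 ± 32.4 FPKM for SP, against 502 ± 323 FPKM for MP (SD, n = 3 each), 12-fold lower in SP, and the log2 difference was −3.63 ± 0.67 (SE; limma adjusted p = 0.00698). The fold was 7.88 without MP replicate 1 and 20.8 without SP replicate 2, and the log2 difference was −3.04 without SP replicate 1. RBP4 had the highest level of the 9 genes in 5 of the 6 libraries, SP replicate 1 being the exception, and in MP it stood above 98.6% to 99.5% of all named genes.

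STRA6 (chromosome 21, 34478053 to 34507705), the receptor for RBP4, was at 2.05, 0.366 and 2.12 FPKM across SP, against 62.1, 6.65 and 14.5 FPKM across MP. All SP values lay below all MP values, but MP replicate 1 was far above the other MP libraries. The log2 difference was −3.06 ± 0.73 (SE; limma adjusted p = 0.0156), from 1.51 ± 0.993 FPKM for SP, against 27.8 ± 30.0 FPKM for MP (SD, n = 3 each). Without MP replicate 1 the log2 difference was −2.21 (limma adjusted p = 0.0226). Without SP replicate 2 the call was lost by a narrow margin (log2 difference −2.67, limma adjusted p = 0.0513). STRA6 stood at 0.471% to 14.3% of the RBP4 level in SP and at 1.45% to 7.34% in MP, ranges that overlap.

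RDH10 (chromosome 14, 36628595 to 36655309), which makes retinaldehyde, was at 29.0, 28.3 and 18.7 FPKM across SP, against 44.2, 20.7 and 15.4 FPKM across MP. MP held both the highest and the lowest value, and the groups overlapped. The log2 difference was 0.03 with a 95% interval from −0.88 to 0.95 (limma adjusted p = 0.951), so a change of somewhat under 2-fold either way lies within the interval. The direction of this small difference turned in 8 of 21 alternatives, and none of them called it. Within a library, RDH10 ranked the first or the second of the 9 genes in SP and the fourth or the fifth in MP.

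ALDH1A1 (chromosome 8, 49053227 to 49106706), an enzyme of retinoic acid synthesis that is also used as a marker of progenitor cells in several tissues, was at 2.06, 5.05 and 6.77 FPKM across SP, against 64.9, 88.2 and 44.3 FPKM across MP. The highest SP value was well below the lowest MP value. The means were 4.63 ± 2.39 and 65.8 ± 22.0 FPKM (SD, n = 3 each), 14.2-fold lower in SP, with a log2 difference of −3.62 ± 0.40 (SE; limma adjusted p = 0.00168). The gene was called lower in SP in 21 of 21 alternatives, over log2 differences from −4.15 to −3.21.

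ALDH1A3 (chromosome 21, 5629301 to 5670915), a second enzyme of the same step, was at 0.204, 0.657 and 0.816 FPKM across SP, against 2.85, 2.42 and 1.29 FPKM across MP. The groups did not overlap, but all values were low. The log2 difference was −1.02 ± 0.27 (SE; limma adjusted p = 0.0235), and on the log2(FPKM + 1) scale the change of such a low gene is understated. The call was lost without SP replicate 1 or 2 (limma adjusted p = 0.0869 and 0.0582) and without MP replicate 1 or 2 (0.07 and 0.0698), and it held in 12 of 20 alternatives.

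ALDH1A2 (chromosome 10, 52215056 to 52340290), the enzyme that makes most retinoic acid in many embryonic tissues, was at 0.0901, 0.0847 and 0.297 FPKM across SP, against 3.06, 0.156 and 0.840 FPKM across MP. Only MP replicate 1 reached 1 FPKM, so the gene was not tested, and MP replicate 2 lay below SP replicate 3. After weighting by depth its values of up to 60 steps were close to whole multiples of one step, 2, 3 and 12 in SP and 11 and 37 in MP replicates 2 and 3. A step is worth at least 1 fragment. The 158 steps of MP replicate 1 are a rounded value that was not judged. The exact two-sided permutation test gave p = 0.2. Its locus overlaps that of LOC112448651, and reads of the pair may not be told apart.

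ALDH1A1 made up most of the summed level of the 3 ALDH1A genes in every library, and the sum crossed the level of RDH10 between the populations. The ALDH1A sum was 2.35, 5.79 and 7.89 FPKM across SP, against 70.8, 90.7 and 46.4 FPKM across MP. RDH10 was thus 2.37 to 12.3 times the ALDH1A sum in SP and 0.228 to 0.625 times it in MP. These ratios do not depend on how a library is scaled. The share of ALDH1A1 in the sum was 85.9% to 87.5% in SP and 91.6% to 97.2% in MP, and that of ALDH1A3 was 8.67% to 11.3% in SP and 2.67% to 4.03% in MP. Neither pair of ranges overlapped, whereas the share of ALDH1A2, 1.46% to 3.83% in SP and 0.172% to 4.33% in MP, did. Sums and shares over chosen genes are descriptions and were not tested.

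**Figure D2:**
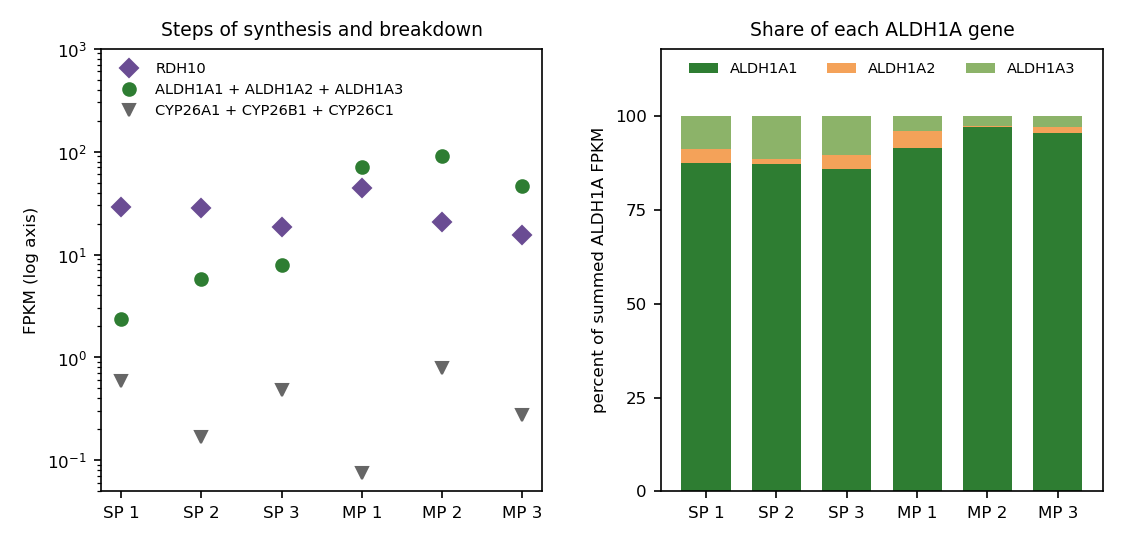
Left, FPKM on a log axis in each library of RDH10 (diamonds), the sum of the 3 ALDH1A genes (circles) and the sum of the 3 CYP26 genes (triangles); right, percent of the ALDH1A sum from each gene. RDH10 lies above the ALDH1A sum in the 3 SP libraries and below it in the 3 MP libraries, and the CYP26 sum stays under 1 FPKM in all 6.

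CRABP1 (chromosome 21, 30733396 to 30740592), a cytoplasmic retinoic acid binding protein, is listed at 0 in SP replicate 1 and was at 0.125 and 1.21 FPKM in SP replicates 2 and 3. In MP it was at 21.8, 10.5 and 18.5 FPKM, so the lowest MP value was far above the highest SP value. In steps of depth-weighted value these are 0, 1 and 11 in SP against 253, 167 and 184 in MP. The MP numbers are rounded and exceed the 60 steps up to which whole multiples were judged. The log2 difference was −3.67 ± 0.39 (SE; limma adjusted p = 0.00137), and the gene was called in 21 of 21 alternatives. With a pseudocount of 0.1 the log2 difference was −5.72, so its size depends on the pseudocount. A listed 0 can be a failed estimate in these files, since the mitochondrial gene COX1 is listed at 0 in the 3 MP libraries.

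CRABP2 (chromosome 3, 14125443 to 14130428), which delivers retinoic acid to its receptors, was at 3.55, 2.33 and 4.09 FPKM across SP, against 72.5, 22.7 and 15.6 FPKM across MP. SP values lay close together, and MP replicate 1 was again the highest. The means were 3.32 ± 0.898 and 36.9 ± 31.0 FPKM (SD, n = 3 each), 11.1-fold lower in SP, with a log2 difference of −2.85 ± 0.52 (SE; limma adjusted p = 0.00671). Without MP replicate 1 the fold was 5.75 and the log2 difference −2.22 (limma adjusted p = 0.00727). FABP5, a fatty acid binding protein that can also carry retinoic acid, was at 0.783, 3.74 and 3.91 FPKM across SP, against 5.28, 10.2 and 8.30 FPKM across MP. It passed narrowly (log2 difference −1.33 ± 0.43 SE, limma adjusted p = 0.0441), but in 6 of 21 alternatives only, and was lost without any one library (limma adjusted p of 0.0988, 0.0567 and 0.0542 without SP replicates 1, 2 and 3, and of 0.054, 0.124 and 0.0876 without MP replicates 1, 2 and 3). CRABP2 was 0.623 to 4.54 times the level of FABP5 in SP and 1.88 to 13.7 times in MP, with overlap.

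CYP26B1 (chromosome 11, 12371160 to 12396520), a cytochrome P450 that breaks down retinoic acid, was at 0.361, 0.0635 and 0.135 FPKM across SP, against 0.0751, 0.0137 and 0.276 FPKM across MP. It was under 1 FPKM in every library, the groups overlapped, and it was not tested; the exact two-sided permutation test gave p = 0.6. Depth-weighted values were 25, 7 and 17 steps in SP and 12, 3 and 38 in MP, and the values spread widely within both groups. The related CYP26A1 was at 0.225, 0.105 and 0.277 FPKM across SP, is listed at 0 in MP replicates 1 and 3 and was at 0.776 FPKM in MP replicate 2. CYP26C1 is listed at 0 except in SP replicate 3, at 0.0722 FPKM. The summed CYP26 level was 0.169 to 0.587 FPKM in SP and 0.0751 to 0.789 FPKM in MP, and the ALDH1A sum was 4.01 to 34.3 times it in SP and 115 to 942 times it in MP. The CYP26 sums overlapped, so the separated ratios restate the lower ALDH1A sum in SP and are not a separate result. The ratio of 942 rests on the CYP26 sum of 0.0751 FPKM in MP replicate 1.

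Across the 9 genes MP replicate 1 held the highest MP value in 7, all but ALDH1A1 (MP replicate 2) and CYP26B1 (MP replicate 3). SP replicate 3 held the highest SP value in 6. MP replicate 1 also had the highest summed level of fibroblast markers, 11000 FPKM against 5020 and 2890 FPKM in MP replicates 2 and 3, and SP replicate 3 had the highest of SP, 466 FPKM against 336 and 279 FPKM. DCN alone was at 6200 FPKM in MP replicate 1. Summed pericyte and smooth muscle markers also peaked in MP replicate 1 (1970 FPKM) and SP replicate 3 (537 FPKM), as did the low mesothelial ones (1.91 and 2.06 FPKM). Within MP the sums of all other marker lists peaked in replicate 2 or 3. Within SP the sums of T and NK cell markers (3.99 FPKM) and of B and plasma cell markers (5.10 FPKM) also peaked in replicate 3, and those of the remaining lists in replicate 1 or 2. The part of these markers in the order of libraries was not tested.

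In a wider list of 52 retinoid genes with a row, which includes the 9, 33 rows were tested. Of these 16 fell and 1 rose in SP, with a median log2 difference of −1.01, beside 18.7% lower and 20.5% higher over all tested genes. In 3 of the calls (ALDH1A3, DHRS9 and PNPLA4) the filter fixed the direction. Among the 26 tested rows outside the 9 genes, 10 fell, 1 rose and 15 did not pass, with a median of −0.68. Without replicate number 2 of both groups 8 of the wider list were called lower and none higher. After rescaling to a sum of 1e6 the list had 14 lower and 4 higher calls, and without MP replicate 3 it had 16 lower and 3 higher.

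For uptake and carriage, TTR, the partner of RBP4 in blood, was at 2.16, 2.21 and 2.32 FPKM across SP, against 20.0, 22.6 and 11.9 FPKM across MP. It fell with a log2 difference of −2.52 ± 0.28 (SE; limma adjusted p = 0.00166). RBP4 was 6.66 to 35.1 times the level of TTR in SP and 17.1 to 42.3 times in MP. RBP5, RBP2 and RBP7 were under 1 FPKM in all libraries. SCARB1, a lipoprotein receptor that also takes up carotenoids, was the gene that rose, from 26.3, 26.7 and 68.3 FPKM in MP to 226, 130 and 125 FPKM in SP (log2 difference 2.05 ± 0.42 SE, limma adjusted p = 0.00942). The call was lost without replicate number 1 or 2 of both groups (limma adjusted p = 0.0822 and 0.0725).

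Among the enzymes that interconvert retinol and retinaldehyde, 4 of 9 tested fell and none rose, beside 18.7% and 20.5% over all tested genes. DHRS9, an oxidising enzyme, is listed at 0 in SP replicates 1 and 2 and was at 0.0311 FPKM in SP replicate 3, against 4.70, 2.42 and 6.07 FPKM in MP. DHRS9 was called lower in SP (limma adjusted p = 0.00219), with a direction that the filter fixed. ADH5, an alcohol dehydrogenase present in most cells, fell from 40.5 ± 3.81 FPKM in MP to 18.6 ± 2.05 FPKM in SP (SD, n = 3 each; limma adjusted p = 0.00819), a call lost without replicate number 1 or 2 of both groups (0.0601 and 0.0906). DHRS4 had a log2 difference of −1.32 (limma adjusted p = 0.0188) and RDH14 of −1.20 (0.0167). Both lost the call without SP replicate 1 (0.0674 and 0.0559) or SP replicate 2 (0.0619 and 0.0563), and RDH14 also without MP replicate 2 (0.054). DHRS3, the enzyme that returns retinaldehyde to retinol, did not pass, at 93.4, 33.0 and 35.0 FPKM across SP, against 36.2, 39.3 and 63.1 FPKM across MP, a log2 difference of 0.09 with a 95% interval from −0.91 to 1.09. It was 1.17 to 3.22 times the level of RDH10 in SP and 0.818 to 4.09 times in MP. For storage, the lipase family gene PNPLA4, under 1 FPKM in all SP libraries, was called lower (log2 difference −1.29, limma adjusted p = 0.00619, direction fixed by the filter), while DGAT1, whose locus overlaps HSF1 (0.35, adjusted p = 0.316) and LIPE (0.88, adjusted p = 0.093) did not pass. Without MP replicate 3, a setting that can widen differences, LIPE passed (1.22, limma adjusted p = 0.0245). ALDH8A1, another aldehyde dehydrogenase of retinaldehyde, is listed at 0 except at 0.0235 FPKM in SP replicate 2.

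**Figure D3:**
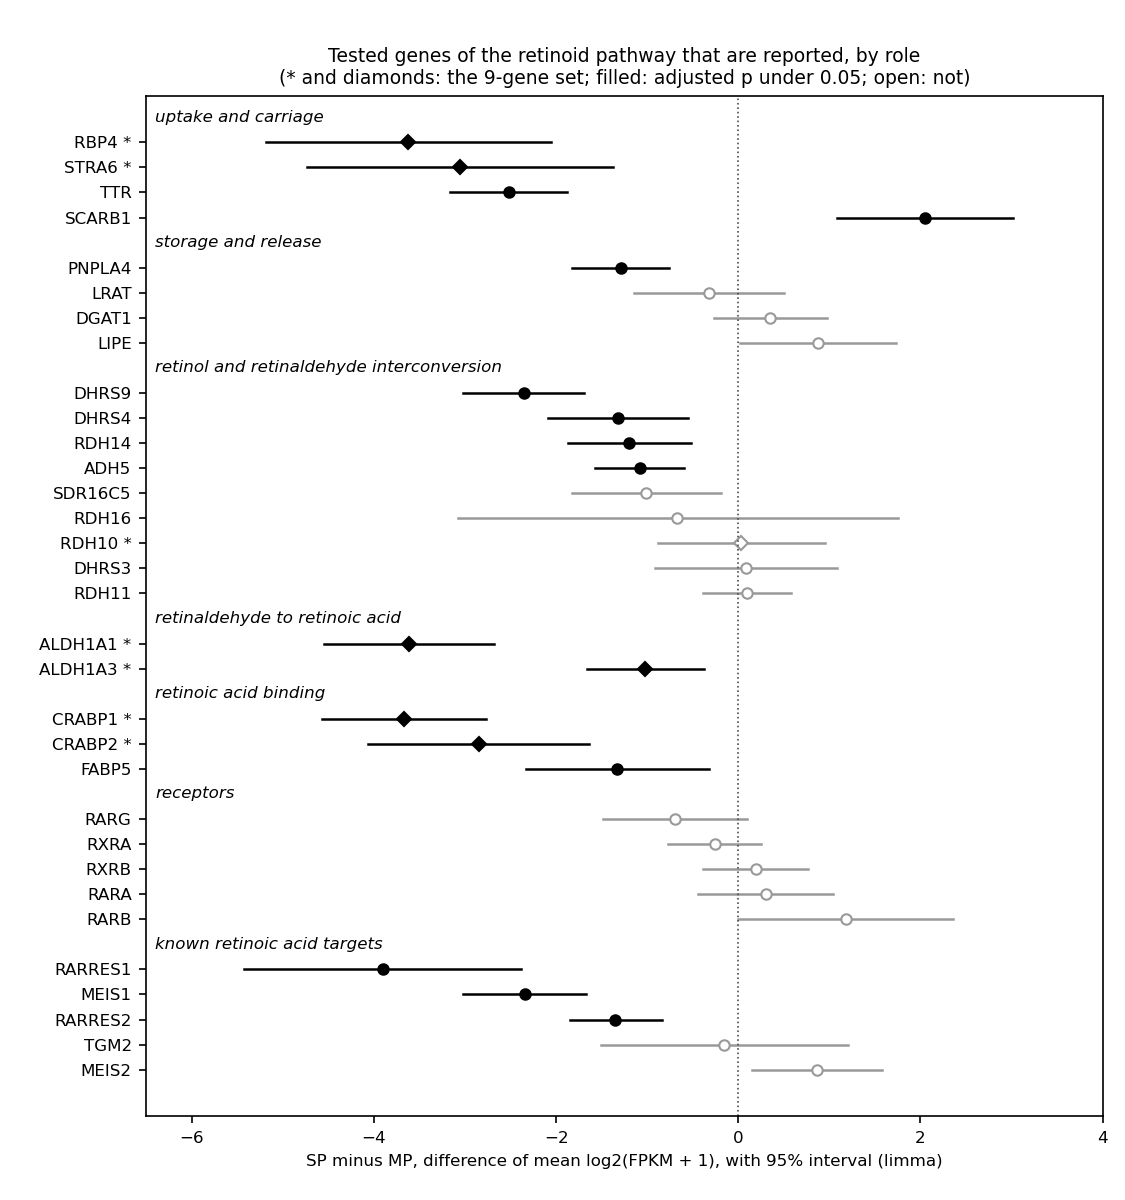
Difference SP minus MP of mean log2(FPKM + 1) with its 95% interval (limma) for tested genes of the wider retinoid list that are reported here, placed under the first role they are listed for; asterisks and diamonds mark the 9-gene set, filled symbols an adjusted p under 0.05. Filled symbols to the left appear under every role but the receptors, whose 5 tested genes are all open.

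Of the receptors of retinoic acid, none of the 5 tested passed with limma, and 0 of 5 had an unadjusted p under 0.05. Over all tested genes 39.2% were called. RARA was at 31.1, 15.5 and 28.0 FPKM across SP, against 19.5, 15.1 and 24.1 FPKM across MP (log2 difference 0.30, 95% interval −0.44 to 1.04), and RXRB, a partner receptor, had a log2 difference of 0.19 (−0.39 to 0.77). The next values, of RARB, RXRG and RARG, were chosen after they were seen. RARB was at 15.9, 8.62 and 8.02 FPKM across SP, against 2.09, 2.62 and 10.3 FPKM across MP, where MP replicate 3 lay within the SP range. Its log2 difference of 1.18 ± 0.51 (SE) did not pass (limma adjusted p = 0.1), and without MP replicate 3 it did (1.77, limma adjusted p = 0.00916). Leaving out that library, picked for its nearness to SP, can itself widen such a difference. RXRG was untested, at 0.246, 0.0384 and 0.168 FPKM across SP, against 1.1, 1.75 and 0.862 FPKM across MP, without overlap. RARG made up 11.4% to 16.2% of the summed RAR level in SP and 19.8% to 41.1% in MP, without overlap. Such separation is common here: SP lay wholly below MP in 26.5% of all tested genes and wholly above in 28.3%.

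Of 13 genes known to be induced by retinoic acid in many cells, 11 were tested, 5 fell and none rose, beside 18.7% and 20.5% over all tested genes. Besides STRA6 and CRABP2, the 5 were RARRES1, RARRES2 and MEIS1. The 6 tested genes that did not pass included RARB (log2 difference 1.18) and DHRS3 (0.09), given above under their other roles. CYP26A1, also of this list, was under 1 FPKM in all libraries and untested. RARRES1, a retinoic acid responsive gene, was at 11.3, 10.3 and 48.9 FPKM across SP, against 599, 204 and 188 FPKM across MP, with a log2 difference of −3.90 ± 0.66 (SE; limma adjusted p = 0.00535). RARRES2, the chemoattractant chemerin, was at 53.9 ± 2.94 FPKM for SP, against 140 ± 22.9 FPKM for MP (SD, n = 3 each; limma adjusted p = 0.00474). MEIS1, a homeobox factor, was at 1.06, 1.29 and 1.59 FPKM across SP, against 15.6, 10.3 and 7.48 FPKM across MP (log2 difference −2.34 ± 0.29 SE, limma adjusted p = 0.00228). TGM2, transglutaminase 2, did not pass, at 215, 105 and 94.7 FPKM across SP, against 356, 72.3 and 115 FPKM across MP (limma adjusted p = 0.843). MEIS2, another homeobox factor, was higher in every SP library, as were 28.3% of all tested genes. It did not pass (log2 difference 0.86, limma adjusted p = 0.0575) and was chosen after its values were seen.

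Cell type markers also differed between the groups, in both directions. Over all tested genes 18.7% were called lower and 20.5% higher in SP. Of 10 stromal fibroblast markers 9 fell and none rose, with a median log2 difference of −3.24 and summed levels of 279 to 466 FPKM in SP and 2890 to 11000 FPKM in MP. COL1A1 did not pass, and DCN was still at 126 to 194 FPKM in SP. Of 14 endothelial markers 13 rose and none fell, with sums of 1750 to 2680 FPKM in SP and of 188, 321 and 967 FPKM in MP replicates 1 to 3. None of 10 epithelial markers passed, with sums of 191, 1820 and 988 FPKM across SP, against 1020, 4700 and 1240 FPKM across MP. Markers of pericytes and smooth muscle fell in 5 of 9 tested (337 to 537 against 1190 to 1970 FPKM), myeloid in 7 of 9 (112 to 141 against 468 to 919 FPKM), T and NK cell in 7 of 7 (0.789 to 3.99 against 84.2 to 262 FPKM) and mast cell in 4 of 5 (14.8 to 34.0 against 408 to 986 FPKM). Most of the SP sums of myeloid and mast cell markers came from CD14 (86.9 to 105 FPKM) and KIT (13.5 to 32.3 FPKM), which did not pass; the median myeloid marker was at 0.185 to 1.52 FPKM in SP and 35.1 to 50.1 FPKM in MP. B and plasma cell markers fell in 2 of 3 (1.77 to 5.10 against 8.60 to 168 FPKM). The called marker was under 1 FPKM in all SP libraries, so that the filter fixed its direction, in 6 of the 7 T and NK cell, 2 of the 2 B and plasma cell, 3 of the 7 myeloid, 2 of the 4 mast cell and 2 of the 9 fibroblast calls. Of the mesothelial markers, 1 was tested and did not pass (0.832 to 2.06 against 0.99 to 1.91 FPKM). CD8B is listed at 0 in all SP libraries, AIF1, ITGAM, CD3D, CD3G and GZMB in SP replicate 1, CD8A and MS4A2 in SP replicates 1 and 2, CD2 in SP replicate 2, MSLN in SP replicate 2, CD79B in MP replicates 1 and 2, MS4A1 in all SP libraries and MP replicate 3, and the mesothelial markers LRRN4 and CALB2 in all libraries but MP replicate 2. The part of these cell types in the retinoid differences was not tested.

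Levels were also set beside single markers within each library. Per 100 FPKM of DCN, the fibroblast proteoglycan decorin, ALDH1A1 was at 1.46, 4.02 and 3.49 in SP and 1.05, 2.31 and 2.71 in MP, with overlap. RBP4 was at 10.2, 61.8 and 17.4 per 100 FPKM of DCN in SP and at 13.6, 12 and 12.4 in MP, where SP replicate 2 was the highest and SP replicate 1 the lowest of all. SP replicate 2 also had the highest EPCAM of SP, 432 FPKM against 30.3 and 134 FPKM, while the epithelial markers KRT18, FOXA2 and MUC1 were highest in SP replicate 3. The ratios of CRABP1 and STRA6 to DCN overlapped as well. CRABP2 was higher in SP on this scale, 1.86 to 2.51 against 0.594 to 1.17, and RDH10 was at 9.62 to 22.5 in SP against 0.542 to 0.944 in MP. The marker matters for CRABP2: over the 10 fibroblast markers, a comparison added after seeing the data, its ratio was higher in all SP libraries for 4, lower for 1 (COL1A1, 4.33 to 5.52 against 5.55 to 25) and overlapped for 5. The ratio of RDH10 was higher in SP for 10 of 10, as was that of CYP26B1. In all 10 markers every SP value lay below every MP value, while RDH10 and CYP26B1 themselves overlapped. Their ratios therefore restate the fall of the markers and are not separate results. The ratio of RBP4 overlapped for 10 of 10. ALDH1A1 overlapped for 9 and was higher for 1, STRA6 overlapped for 8 and was higher for 1 and lower for 1, and CRABP1 overlapped for 8 and was lower for 2. ALDH1A2 and ALDH1A3 were higher in SP for 6 and 7 and overlapped for the others. Per 100 FPKM of EPCAM, an epithelial adhesion molecule, ALDH1A1 was at 1.17 to 6.79 in SP and 14.5 to 84.3 in MP and RBP4 at 17.9 to 47.4 and 75.1 to 1100, without overlap. CRABP1, at 0 to 0.901 in SP and 1.72 to 32.7 in MP, did not overlap either, while CRABP2, STRA6 and RDH10 overlapped on that scale. EPCAM itself overlapped between the groups and did not pass (limma adjusted p = 0.898), while ALDH1A1, RBP4 and CRABP1 fell. The separations on this scale are therefore not separate results. These ratios are descriptions and were not tested.

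**Figure D4:**
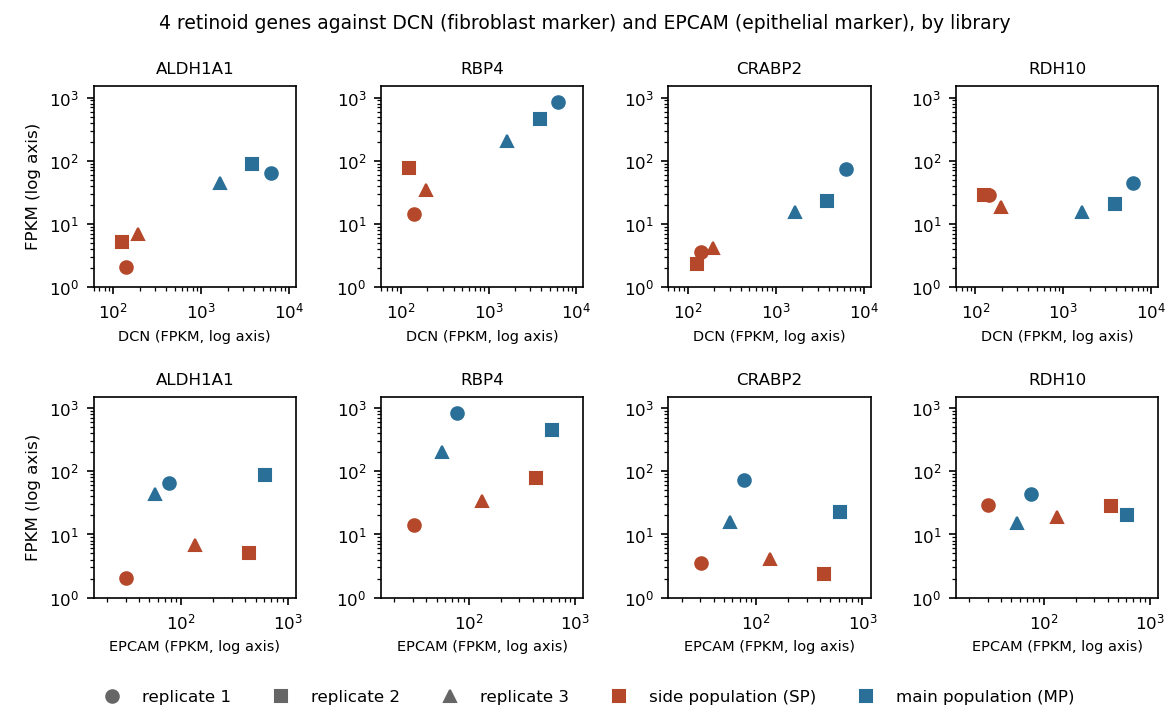
FPKM of ALDH1A1, RBP4, CRABP2 and RDH10 (vertical, log axis) against the fibroblast marker DCN (upper row) and the epithelial marker EPCAM (lower row), 1 point per library with both axes in FPKM on log scales. ALDH1A1, RBP4 and CRABP2 are higher in the 3 MP libraries, where DCN is also higher, while RDH10 overlaps between the groups, with its highest and lowest points in MP.

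For the 3 tested genes of the highest mean level, the genes of the most similar pattern over the 6 libraries were named by Pearson r of log2(FPKM + 1), as a description. For RBP4 these were FBXO46, MAGEH1 and TCTN1 (r = 0.996 each), for ALDH1A1 the peroxiredoxin PRDX5, the peroxisomal membrane gene PXMP2 and the lipid transfer protein PLTP (0.996 each), and for RDH10 LIN52, ATP9B and PRKCSH (0.986, 0.981 and 0.974). PLTP fell from 110, 134 and 78.8 FPKM across MP to 3.17, 5.3 and 7.6 FPKM across SP (log2 difference −4.13, limma adjusted p = 0.000621). As many as 377 genes for RBP4 and 703 for ALDH1A1 had r of at least 0.95, against 7 for RDH10.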

How the data were processed

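Per the file headers, the deposited values are FPKM for each of the 6 libraries, one file per library, with no scaling between libraries stated. Per the submitters' processing notes, cutadapt 2.5, HISAT2 2.1.0 and the build ARS-UCD 1.2 were used; how FPKM was computed, with which annotation and with or without strand, is not given in the sources used here. A further row with no name, pooling 662 symbols, took 0.18% to 1.91% of each library's sum and was left out. Groups and replicate numbers came from the titles. Genes at 1 FPKM or more in at least 3 libraries (with a library left out, in as many libraries as the smaller group has) were fitted by limma 3.58.1 (R 4.3.3, eBayes with trend, two-sided) after log2(FPKM + 1). On simulated data with 200 changed genes, far fewer than were called here, the fit called 18.4% of log2 changes of 1. It called 63.2% of those of 2 and 98% of those of 3. A gene that did not pass is therefore not shown to be unchanged. Depth is known only relative to SP replicate 1, from ratios of values under 0.3 FPKM. Coordinates are those of the files, introns included; chromosome numbers came from the gene table of ARS-UCD2.0 through the symbols. No protein or promoter sequences were used here, and RBPR2, of the wider list, was not analysed here. The 9 genes, the lists and the tests were chosen with earlier results of these data known. Named were the 9 genes, the called genes of the wider list, the 2 uncalled of highest mean in each role, and the 3 most similar genes for the 3 highest of the 9. Some genes counted in the wider list are not reported here by name. Each fitted result was recomputed under up to 21 alternatives; shares and permutation p-values were not.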

Additional observations from a re-analysis of the deposited data

How the results depend on the processing

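The 6 lower calls among the 9 genes became 4 to 6 when a library or a replicate number was left out, and 5 or 6 with the other pseudocounts, filters and scalings. ALDH1A1, RBP4 and CRABP1 were called lower in 21 of 21 alternatives; CRABP2 was lost without replicate number 2 (limma adjusted p = 0.0579), STRA6 without SP replicate 2 or replicate number 3 (0.0513 and 0.0537), and ALDH1A3 in 8 of 20, among them no filter (0.052) and a sum of 1e6 (0.0521). The sign of RDH10, called in none, turned with median ratio scaling (log2 difference −0.01) and quantile normalization (−0.05) and ranged from −0.28 to 0.45 with one library left out; it was −0.17 and −0.08 without replicate number 2 or 3. The count over all genes ran from 2478 (without SP replicate 1) to 5092 with one library left out and was 1344 and 1112 without replicate number 1 or 2; the wider list's lower calls ran from 11 to 17, and were 8 without replicate number 2. The share of calls higher in SP was 52.3%, and 68.1% after rescaling to a sum of 1e6. Same-numbered SP and MP libraries had correlated deviations of 0.10, 0.53 and −0.09 for numbers 1 to 3, and not every sample correlated best with its own number. The column headers give both groups the numbers 1, 2 and 4, and no label says whether a number marks one animal, so pairing was not assumed; with the number as a replicate block 4793 genes, 6 of the 9 and 19 of the wider list lower (RARG among them, 0.0468) were called. The SP values of ALDH1A2, CRABP1 and CYP26B1 rest on 0 to 25 steps each, which limits their precision.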

Other observations

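RDH16, a short-chain dehydrogenase that can oxidise retinol, was chosen after its values were seen. Its levels were 0.46, 9.78 and 1.32 FPKM across SP, against 0.554, 21.9 and 3.08 FPKM across MP; replicate 2 was the highest in both groups. EPCAM, an epithelial marker, was also highest in replicate 2 of both, at 432 and 610 FPKM, as was the sum of the epithelial markers (1820 and 4700 FPKM). The epithelial markers KRT18, FOXA2 and MUC1 were instead highest in SP replicate 3 within SP. The part of epithelial cells in the levels of RDH16 was not tested. RDH16 did not pass between SP and MP (limma adjusted p = 0.631).

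RBP4 lies 477 kb from CYP26A1 on chromosome 26, and CRABP1 and STRA6 lie 3.7 Mb apart on chromosome 21, where ALDH1A3 also lies. RBP4 was among the most abundant genes in MP, while CYP26A1 was under 1 FPKM in all 6 libraries.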
